A study of Zea mays with 4 samples.

Results

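The cytochrome P450 family was read out on maize root arrays by 299 of the 54787 maize probes that occupy 1 spot on 1 of the 2 array versions. A probe was a member when its annotation text held the word P450 and did not name cinnamate, flavonoid 3-hydroxylation, allene oxide, gibberellin or abscisic acid. Version A held 142 members and version B held 157. The 299 probes were designed on 266 source sequences and were described through 125 best protein hits, so several probes share a hit, and close copies of a P450 gene may hybridise to the same probe. A CYP subfamily number appeared in the text of 54 members, under 27 names.

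Cytochrome P450 enzymes are heme-containing monooxygenases that insert oxygen into hydrophobic molecules with electrons passed on by NADPH-cytochrome P450 reductase, and in some reactions by cytochrome b5. In plants they form a very large gene family, whose members act in the synthesis of lignin precursors, sterols, brassinosteroids, gibberellins and defence compounds and in the breakdown of herbicides. In maize roots the family is known for the CYP71C enzymes, which build the benzoxazinoid defence compounds from indole.

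The tested RNA came from the nitrate-fed side of split roots of 10-day-old plants, after 1 h in 1 mM nitrate, and the reference RNA came from control half-roots, kept without nitrogen and with 1 mM calcium chloride in place of the calcium. All plants had first grown for 6 days in 0.5 mM nitrate and then for 2 days without nitrogen, and segments reaching 15 cm from the root tip were taken. Nitrate RNA carried Cy3 and control RNA carried Cy5 on all 4 arrays (2 replicates of each version), so a dye effect of a probe cannot be told apart from its response to nitrate. The nitrate-fed and control samples are separate compartments of split-root plants; the maize line is not given in the sources used here, and the labels do not say whether both control samples came from separate plants, so the spread between arrays may be partly technical.

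Median deposited intensities of the maize spots were 1572.5 to 1939 for nitrate and 1438 to 1960 for control over the 4 arrays. A channel counted as above background when it was brighter than 95% of its array's empty spots (buffer or blank). A member was tested when at least 1 of its channels passed on both arrays, which 288 of 299 members did (141 of version A, 147 of version B). Of the probes described by root terms, 80 of 86 were above that level in every channel, as were 53 of 57 probes of leaf photosynthesis proteins and 152 of 305 zein probes, so presence above background did not separate root from leaf markers. Ratios below are log2 of nitrate over control after a within-array loess, which sets each spot against spots of like brightness, so equal deposited intensities need not give a log2 ratio of 0.

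No P450 probe passed the limma test at a Benjamini-Hochberg adjusted p of 0.05. On version A this was 0 of 141 members in either direction, beside 0% of the 28374 probes tested, and on version B 0 of 147, beside 0.0525% of 24748 probes higher with nitrate and 0% lower. The smallest adjusted p of a member was 0.141. At an unadjusted limma p of 0.05, version A had 5 members higher with nitrate (3.55%, background 7.55%) and 15 lower (10.6%, background 4.49%). Version B had 5 higher (3.4%, background 7.64%) and 7 lower (4.76%, background 5.29%). On version A, members below this unadjusted level were thus mostly lower with nitrate, while over all version A probes more were higher than lower.

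Few members reached a large ratio on both arrays. On version A, 0 members were 2-fold higher on both arrays (background 0.592%) and 2 were 2-fold lower (background 0.127%). On version B there were 0 in either direction (backgrounds 0.59% and 0.0566%). At 1.5-fold, a level added after the data were seen, version A had 2 higher and 7 lower members (backgrounds 3.08% and 1.5%) and version B had 0 higher and 3 lower (backgrounds 2.92% and 1.54%). Mean ratios were within 1.5-fold of 1 for 120 of the 141 tested members of version A (85.1%, against 87.4% of all its probes) and 136 of the 147 of version B (92.5%, against 87.3%), where 31 of the members belong to a block of probes, described below, that all lie in this range.

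The 2 replicate arrays agreed only loosely on single members. Over members the log2 ratios of the replicates correlated with a Pearson r of 0.433 on version A (141 probes) and 0.123 on version B (147 probes), against 0.289 and 0.269 over all tested probes of those versions; the members share their arrays and dyes. The sign was the same on both version A arrays for 40 members above 0 (28.4%, background 30.4%) and 50 below 0 (35.5%, background 30.1%), and opposite for 51. On version B it was the same for 51 above 0 (34.7%, background 29.7%) and 33 below 0 (22.4%, background 30.6%), and opposite for 63. Of those 51, 24 belong to a block of mostly saturated probes described next, and without that block version B had 27 above 0 and 32 below 0 of 116. The median SD between the replicates of a member was 0.21 for version A and 0.19 for version B, in log2 units.

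This block of 35 members stood apart from the rest of the family. All 35 carry the description of a probable P450 monooxygenase fragment of maize and share 1 protein hit, and 26 of them were designed on a single source sequence. In at least 1 channel, 29 of the 35 were saturated on both arrays (at or above 99% of the array's highest intensity), while 0 of the other 264 members were. The annotation lists a median of 47 other maize sequences that match these probes in full, against a median of 0 for the other members, and a rice gene model for 0 of the 35, against 246 of 264 (93.2%). A category code holding the letter R, whose meaning is not given in the sources used here, was attached to 30 of the 35 and to 0 of the others. What these probes hybridise to was not tested.

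The brightest of the block, MZ00045191 on version B, had nitrate intensities of 73908 and 63340 and control intensities of 73966 and 63410. Both channels were at the ceiling on both arrays, so its ratio measures no change. Among the 6 fragment probes below saturation in this sense, MZ00003717 was the dim exception, with nitrate intensities of 962 and 154 and control intensities of 1167 and 114. Nitrate was not above background on its second array, and it had a log2 ratio of -0.31 ± 0.028 (SD, n = 2 arrays; limma adjusted p = 0.617). The other 5 had control intensities of 27458 or more on each array and means of 0.092 to 0.30. Only MZ00035125 was above 0 on both arrays (0.30 on each). Opposite signs on the first and second array were seen for MZ00035394 (-0.67 and 0.96), MZ00045152 (-0.54 and 0.72), MZ00045223 (-0.33 and 0.80) and MZ00046139 (-0.063 and 0.62). Under median centring all 35 fragment probes were below 0.

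The family median was read with and without this block. Over all tested members the median log2 ratio was -0.085 on version A and 0.087 on version B, against 0.004 and -0.004 over all probes. Under median centring the version B value became -0.066, against -0.038 over all version B probes. In the reported fit without the fragment probes, the median was -0.098 on version A (137 members) and 0.030 on version B (116 members). The 2 version B arrays then had medians of -0.0044 and -0.0095, and the 2 version A arrays -0.013 and -0.11. The block, split off after its values were seen, held 0 probes at an unadjusted limma p of 0.05. Without it the 5 higher and 7 lower members of version B were 4.31% and 6.03% of 116 (backgrounds 7.64% and 5.29%). The lower share was near its background both ways, at 4.76% with the block.

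P450 reductase, the electron donor of the family in the endoplasmic reticulum, had 9 probes from 3 protein hits, all tested. MZ00024168, the brightest and described by a wheat enzyme, had nitrate intensities of 31344 and 52831 and control intensities of 27208 and 44981. Nitrate exceeded control on both arrays, with log2 ratios of 0.61 and 0.59 and a mean of 0.60 ± 0.017 (SD, n = 2; 95% interval 0.070 to 1.13; limma adjusted p = 0.389), and the value was 0.17 under the scaling that lowered it most. Both other probes of the same wheat hit were below 0, MZ00004610 at -0.26 ± 0.00028 and MZ00024169 at -0.13 ± 0.19 (SD, n = 2 each). The second wheat hit gave 0.40 ± 0.34 for MZ00021512, 0.11 ± 0.72 for MZ00051802 and -0.12 ± 0.37 for MZ00001429. The rice hit gave 0.30 ± 0.64 for MZ00039246, -0.067 ± 0.22 for MZ00021385 and -0.27 ± 0.28 for MZ00051946. Reductase probes therefore lay on both sides of 0 within each protein hit, and their median of -0.067 became positive under print-tip loess and with the deposited ratio (0.066 and 0.060).

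The benzoxazinoid group held 12 tested CYP71C probes. The RefSeq annotation (assembly Zm-B73-REFERENCE-NAM-5.0) gives CYP71C2, CYP71C1 and CYP71C3 the synonyms BX3, BX4 and BX5 and places them beside bx8, bx1 and bx2; these P450 enzymes carry out successive oxidations between indole and DIBOA. MZ00024166, for CYP71C1 and the brightest of the group, had nitrate intensities of 6298 and 4107 and control intensities of 5372 and 5002. Its arrays pointed in opposite directions, 0.47 and -0.27, with a mean of 0.10 ± 0.52 (SD, n = 2; adjusted p = 0.899), and median centring turned it to -0.072.

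The other maize CYP71C probes were as mixed. For CYP71C1, MZ00034319 averaged -0.12. CYP71C3 had 4 probes, MZ00037256 at -0.45 ± 0.18, MZ00023623 at -0.28 ± 0.0082, MZ00039818 at 0.17 ± 0.27 and MZ00023625 at 0.22 ± 0.23 (SD, n = 2 each). CYP71C2 had MZ00014307 at -0.27 ± 0.79. A rice CYP71C4 hit had 3 probes, all below 0, from -0.39 to -0.053. The probes for maize CYP71C4, which oxidises indole, were dim. MZ00002342 had nitrate intensities of 131 and 69 and control intensities of 25 and 7, with control not above background on either array. Its estimated ratio was bounded at 1.17-fold or more higher with nitrate, which leaves out the spread between arrays. The limma interval of its mean log2 ratio, -0.20 to 0.91, reached below 0 (limma adjusted p = 0.548). MZ00027491 had 208 and 89 in nitrate and 72 and 17 in control, with control not above background on the second array, and a mean of 0.36 ± 0.20. Over all 12 probes 5 were above 0 and 7 below, from -0.45 to 0.36, 0 had an unadjusted p under 0.05, and the group median of -0.069 turned to 0.035 under print-tip loess. The 7 probes of the glucosyltransferases that add sugar to benzoxazinoids had a median of -0.052, which also changed sign with the scaling, and 0 at an unadjusted p of 0.05.

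CYP72A probes spread widely. MZ00022114, for maize CYP72A28, had nitrate intensities of 2981 and 2829 and control intensities of 10196 and 5035. Control exceeded nitrate on both arrays, by log2 ratios of -1.50 and -0.84, with a mean of -1.17 ± 0.47 (SD, n = 2; 95% interval -1.78 to -0.56; adjusted p = 0.270), or 2.25-fold higher in control. The same protein hit had 3 more probes, all on version B. MZ00049202 had nitrate intensities of 484 and 751 and control intensities of 634 and 885, a mean of -0.62 ± 0.033 (adjusted p = 0.328). MZ00042503 averaged 0.11 ± 0.18 and MZ00037415 0.22 ± 0.50. Probes described as CYP72A28 thus lay on both sides of 0. For CYP72A5, MZ00016083 averaged -0.78 ± 0.69, MZ00028211 -0.35 ± 0.37 and MZ00044587 0.48 ± 0.38. Over the 10 CYP72A probes 3 had an unadjusted p under 0.05, all lower with nitrate, 1 among the 3 of version A and 2 among the 7 of version B (backgrounds 4.49% and 5.29%), and the median was -0.072 (range -1.17 to 0.50).

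CYP98A1, the sorghum name of the enzyme that adds the 3-hydroxyl group on the way to lignin precursors, had 4 probes. MZ00019212 was among the brightest members, with nitrate intensities of 33890 and 29194 and control intensities of 33978 and 30439 and a mean log2 ratio of 0.33 ± 0.11 (SD, n = 2), which median centring turned to -0.079. MZ00009763 had nitrate intensities of 2673 and 8010 and control intensities of 1797 and 4466. Nitrate exceeded control on both arrays, with a mean of 0.77 ± 0.17 (95% interval 0.23 to 1.31; adjusted p = 0.332), and it stayed between 0.64 and 0.79 under the alternatives run. The version B probes MZ00049737 and MZ00049362 averaged 0.18 ± 0.16 and -0.19 ± 0.57. Of the steps that the choice of members left out, cinnamate 4-hydroxylase acts earlier in the same pathway. Its probe MZ00002315 averaged 1.13 ± 1.51 with arrays at 2.19 and 0.059, so the spread exceeded the mean (limma adjusted p = 0.413). Its version B probe MZ00037771 averaged 0.44 ± 0.75 with arrays at 0.97 and -0.095.

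Probes grouped by text or CYP number as hormone and sterol enzymes were 9 tested probes, of which 1 had an unadjusted p under 0.05. It was lower with nitrate and 1 of the 2 CYP90A1 probes, both on version A (background 4.49%). CYP90A1, needed for brassinosteroid synthesis in Arabidopsis, had nitrate intensities of 1732 and 1499 and control intensities of 2710 and 2299 at MZ00026462, a mean of -0.62 ± 0.16 (SD, n = 2; adjusted p = 0.386), while the dim second probe MZ00021542 averaged -0.084 ± 0.11. CYP92A1, placed here by its CYP number only, with no hormone role given in its text, had MZ00022717 at -0.31 ± 0.12 and MZ00035866 at 0.14 ± 0.11. The single probe for maize CYP88A1, the Dwarf3 enzyme of gibberellin synthesis, was MZ00024614, with 1611 and 1989 in nitrate, 1243 and 1681 in control and a mean of 0.13 ± 0.34. Obtusifoliol 14-alpha demethylase, a sterol enzyme, had 4 probes between -0.49 and 0.51, the brightest, MZ00003127, at -0.037 ± 0.20, and its median of 0.052 changed sign under 3 of the 4 other scalings. None of these probes differed between nitrate and control beyond the adjusted threshold.

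CYP78 enzymes, known in Arabidopsis for setting organ size, had 8 tested probes, 6 above 0, with a median of 0.146 that stayed positive under the 4 other scalings. Of the 8, 7 share 1 rice protein hit. Only 3 were above 0 on both arrays, 1 was below 0 on both and 4 had opposite signs. The brightest, MZ00033792, had nitrate intensities of 11269 and 10311 and control intensities of 9863 and 8720. Nitrate was higher on both arrays, at a mean of 0.45 ± 0.093 (SD, n = 2; 95% interval -0.084 to 0.98; adjusted p = 0.461). None of the 8 had an unadjusted p under 0.05.

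The remaining numbered members were a small set. The CYP97 probes gave -0.48 ± 0.55 for MZ00027258, -0.094 ± 0.23 for MZ00036533 and 0.52 ± 0.25 for MZ00002302, whose control was not above background on the second array. Other CYP71 clan members ranged from -0.65 to 0.34 over 9 probes, and the brightest, MZ00032324, described as sorghum CYP99A1, averaged -0.65 ± 1.00 with arrays at 0.054 and -1.36. The fatty acid hydroxylase probe MZ00009853 averaged 0.15 ± 0.074 and turned to -0.15 under median centring. MZ00034139, described by the bacterial CYP105A1 of Streptomyces griseolus, averaged 0.25 ± 0.22. A probe for CYP79A1, which in sorghum makes the first intermediate of a cyanogenic glucoside, was not tested because neither channel exceeded background on the first array.

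The largest group, 187 tested probes, had neither a subfamily number nor a text that placed them in another group, and both 2-fold probes were among them. MZ00019833 had nitrate intensities of 790 and 1475 and control intensities of 4805 and 2950. Control was above nitrate on both arrays, with log2 ratios of -2.34 and -1.08 and a mean of -1.71 ± 0.89 (SD, n = 2; 95% interval -2.49 to -0.93; adjusted p = 0.241), or 3.27-fold higher in control. MZ00029404 had nitrate intensities of 326 and 329 and control intensities of 1159 and 900. Its arrays were close together, at -1.59 and -1.53, and it had the smallest adjusted p of the family (mean -1.56 ± 0.045, 95% interval -2.09 to -1.03, adjusted p = 0.141), or 2.95-fold higher in control. The 3 other probes of the hit of MZ00029404 were above 0, at up to 0.46. The hit of MZ00019833 had 2 other probes, MZ00001976 at -0.44 and MZ00034938 at 0.26.

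A rice hit on which all 3 probes lay below 0 was picked out after its values were seen. MZ00042464 had nitrate intensities of 4342 and 6241 and control intensities of 13191 and 11419. Control exceeded nitrate on both version B arrays, with a mean of -1.08 ± 0.17 (SD, n = 2; 95% interval -1.62 to -0.54; adjusted p = 0.150), or 2.12-fold higher in control. MZ00025590 on version A had 804 and 1486 in nitrate and 2133 and 1886 in control, a mean of -0.87 ± 0.54. The dim MZ00033034 averaged -0.13 ± 0.24, and under median centring 1 of the 3 was above 0. Other hits with 3 tested probes, from rice and Lolium rigidum, also had all 3 below 0, and 1 further rice hit had all 3 above 0.

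An elicitor-inducible P450 of rice was the best hit of 5 tested probes, a set also picked out after its values were seen. Of these 4 were below 0, the lowest MZ00033758 at -0.83 ± 0.097 (SD, n = 2; adjusted p = 0.312), and their median of -0.28 stayed below 0 under the 4 other scalings. MZ00007406, a probe of another rice hit described as a putative P450, had nitrate intensities of 18 and 5 and control intensities of 71 and 36. Nitrate was not above background on either array. The estimated ratio was bounded at 1.53-fold or more higher in control, which leaves out the spread between arrays (limma adjusted p = 0.312). The hit of MZ00007406 had 4 tested probes, and the 3 others were above 0, at up to 0.44.

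The other probes among the 10 with the lowest mean ratios of the same sign on both arrays had means between -0.91 and -0.83. They were MZ00026274 (-0.91 ± 0.68), MZ00022533 (-0.90 ± 0.27), MZ00005464 (-0.86 ± 0.0035), MZ00017392 (-0.86 ± 0.76) and MZ00031251 (-0.83 ± 0.13; SD, n = 2 each), with adjusted p from 0.200 to 0.379. MZ00022533 shares a rice protein hit with MZ00022887, which averaged 0.63. Of the 5 tested probes with that hit, 2 were above 0 and 3 below. MZ00005464 had almost the same ratio on both arrays, with nitrate intensities of 240 and 209 and control intensities of 458 and 325. MZ00052012 and MZ00052011, which share its sorghum hit, averaged 0.058 ± 0.13 and -0.069; nitrate was not above background for MZ00052011 on either array.

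On the high side the probes with the largest means had replicates far apart. MZ00020892 had nitrate intensities of 3137 and 5160 and control intensities of 2942 and 880. The ratio rested on the second array (0.24 and 2.31), with a mean of 1.27 ± 1.46 (SD, n = 2; adjusted p = 0.383). MZ00005462 had nitrate intensities of 1106 and 5037 and control intensities of 770 and 1453, log2 ratios of 0.44 and 1.64, and a mean of 1.04 ± 0.85 (adjusted p = 0.340). For both, a single array carried most of the mean. MZ00049400 averaged 0.79 ± 0.51, MZ00012774 0.68 ± 0.66, MZ00049027 0.68 ± 0.53, MZ00022887 0.63 ± 0.38 and MZ00003180 0.55 ± 0.31. MZ00052167, named after its values were seen, had nitrate intensities of 166 and 1297 and control intensities of 135 and 4. Nitrate on its first array and control on its second were not above background (242.45 and 47), so its mean of 1.30 ± 2.23, from arrays of opposite sign, was not ranked.

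MZ00040092, described by a sorghum P450-like protein, had nitrate intensities of 17250 and 23150 and control intensities of 17260 and 13612 and averaged 0.61 ± 0.23 (SD, n = 2; adjusted p = 0.343). Of the 5 probes with this hit 4 were above 0, from 0.46 to 0.61, and the fifth, MZ00024985, averaged -0.029 ± 0.27. The annotation lists the class of sterol 14-demethylases for all 5, which the group of obtusifoliol demethylases, chosen by text, does not include. In MZ00024986 control was not above background on either array. Its estimated ratio was bounded at 1.15-fold or more higher with nitrate, which leaves out the spread between arrays. Over the 43 protein hits with tested probes on both versions, the sign of the mean ratio was the same on both versions for 23 (53.5%).

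The proteins that serve P450 enzymes gave 0 probes past the adjusted limma threshold. Of 21 tested probes for cytochrome b5 and its reductase, 11 were above 0 and 10 below, and 1 had an unadjusted limma p under 0.05. It was MZ00038959, for cytochrome b5 reductase isoform II, at 0.73 ± 0.29 (SD, n = 2, limma adjusted p = 0.279). MZ00016121 and MZ00034250, with the same description, averaged -0.62 ± 0.83 and -0.41 ± 0.20. Of 34 tested probes for heme synthesis, which makes the P450 cofactor and, in plastids, shares its steps with chlorophyll, 6 were higher and 1 lower at an unadjusted p of 0.05, the 6 among 17 on version B (background 7.64%) and the 1 among 17 on version A (background 4.49%). MZ00038830, for glutamyl-tRNA reductase, the entry step, had nitrate intensities of 1260 and 6470 and control intensities of 796 and 1547, a mean of 1.11 ± 0.87 (adjusted p = 0.210). It was the highest probe for this enzyme. Its other probes lay on both sides of 0, MZ00036389 at 0.76 ± 0.61, MZ00024360 at 0.29 ± 0.17, MZ00024359 at -0.12 ± 0.17 and MZ00008480 at -0.22 ± 0.22. MZ00041888, for coproporphyrinogen oxidase, had 11908 and 21414 in nitrate and 7067 and 12377 in control, a mean of 0.95 ± 0.24 (adjusted p = 0.184). The median of the heme list was -0.086 on version A and 0.343 on version B, beside 0.004 and -0.004 over all probes. The 6 heme oxygenase probes had 0 higher and 1 lower at an unadjusted p of 0.05, the 1 among 4 on version B (background 5.29%). The 132 other UDP-glucosyltransferase probes, enzymes that add sugar to P450 products among others, had 4 higher and 12 lower with a median of -0.072. On version A 1 of 62 was higher and 3 were lower (backgrounds 7.55% and 4.49%). On version B 3 of 70 were higher and 9 were lower (backgrounds 7.64% and 5.29%). Over all tested probes of both versions 12.5% were at that level in either direction. The 9 tested probes for P450 steps that the choice of members left out had 1 higher and 1 lower, both among the 4 on version A (backgrounds 7.55% and 4.49%). The lower was an allene oxide synthase probe, MZ00029371, at -0.71 ± 0.056 (limma adjusted p = 0.345). Other probes for this enzyme were MZ00022994 at 0.036 ± 0.33, MZ00002077 at -0.067 ± 0.091 and MZ00044190 at -0.45 ± 0.12. In MZ00044190 control was saturated on both arrays.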

How the data were processed

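RNA of nitrate-fed and control half-roots was hybridised to 4 spotted 2-colour arrays, 2 per version. The deposited intensities, a linear scale per dye, fall below 0 in part, which shows that the authors took off a background. The deposited ratio is nitrate over control and was normalized within arrays by the authors, as its medians near 1 show. The sources used here do not give how either step was done. The ratio served as an alternative. The value tables of the series hold the same ratios.

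The deposited intensities were taken to log2 ratios in limma 3.58.1 (R 4.3.3), through normexp (offset 50) and then a global loess in each array, where control spots and 4 to 10 spots per array carrying the flag B had weight 0. Each version was fitted on all its tested maize probes with lmFit and eBayes, and p-values were adjusted over the version by Benjamini-Hochberg. How well the fit finds changes of the size reported here was not tested. The number of arrays limits the precision.

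The members, groups and lists were chosen with earlier results of these data known. Groups were read from the annotation text; CYP88A1 was set with gibberellin steps, and the maize fragment group was split off after its values were seen. Named were probes past the test, the 10 highest and 10 lowest means among unsaturated members of equal sign on both arrays, the brightest of each group, every reductase and the 2-fold members; others in the same groups or lists, or sharing a protein hit, were named after their values were seen. Alternatives were median centring, print-tip loess (48 blocks), plain log2 intensities, the deposited ratio, no filter, and trended and maximum-likelihood priors. Sequences were not used here.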

Additional observations from a re-analysis of the deposited data

How the results depend on the processing

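No P450 probe and no probe of the partner lists passed an adjusted p of 0.05 under any of the 7 alternatives, and the smallest adjusted p of a member under one was 0.062 (MZ00042464, median centring). Over all probes the same alternatives called 0 to 8 on version A and 0 to 18 on version B, where the reported fit called 13. No paired analysis was possible because each array's ratio, as tested, already pairs nitrate with control, which leaves no further replicate block to fit, and the versions hold different probes. With 1 array left out there is a value and no test. The count of version A members 2-fold lower was 1 under print-tip loess, 5 with plain log2 intensities, 7 at 1.5-fold and 5 to 6 on single arrays; the count higher was 1 with plain intensities, 4 with the deposited ratio, 2 at 1.5-fold and 1 to 2 on single arrays. On version B the count lower was 1 under median centring, 3 at 1.5-fold and 0 to 3 on single arrays, and the count higher 2 to 3 on single arrays. The version A median was -0.0034 without replicate 2 and -0.093 without replicate 1. The version B median was 0.065 and 0.107 on single arrays, 0.056 under print-tip loess and 0.030 without the maize fragment probes. Under median centring it was -0.066, where all version B probes had a median of -0.038. The cause of these differences was not tested. Of the 41 named probes, 35 kept their direction under median centring and 38 each under print-tip loess and the deposited ratio. Under median centring MZ00009853 turned to -0.15, MZ00019212 to -0.079, MZ00024166 to -0.072, MZ00042503 to -0.086, MZ00045191 to -0.16 and MZ00052012 to -0.34. Under print-tip loess and the deposited ratio, MZ00009853 turned to -0.074 and -0.085, MZ00021385 to 0.066 and 0.060, and MZ00052012 to -0.038 and -0.037. The 20 highest and lowest probes did not change direction, with adjusted p from 0.062 to 0.709. Saturation limits 29 members and low signal the 11 not tested.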
